A study of Mus musculus with 38 samples.

Results

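T cell receptor V segments are the gene pieces that encode most of the antigen-binding end of the receptor's alpha chain (Trav segments) and beta chain (Trbv segments). They were taken as every row whose symbol starts with Trav or Trbv, which gave 163 rows of 31053, with no choice by measured values. The 128 Trav rows comprised 108 genes and 20 pseudogenes on chromosome 14 between 52427928 and 53977678. The 35 Trbv rows comprised 22 genes and 13 pseudogenes on chromosome 6 between 40891229 and 41558452 (GRCm38, mm10; GENCODE M21 annotation). Counts were present for 148 of the 163 rows in at least 1 of 38 libraries, and 15 rows had none.

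Each developing T cell joins 1 V segment to downstream segments on each locus, so the V segments seen in the RNA of many cells reflect which clones are present. Beta chain rearrangement is largely restricted to a single productive allele per cell, whereas the alpha locus can go on rearranging on both chromosomes until the receptor is selected. The 2D2 mouse carries already rearranged alpha and beta transgenes for a receptor that recognizes a myelin oligodendrocyte glycoprotein peptide, and its T cells are a standard tool in experimental autoimmune encephalomyelitis (EAE). The 2D2 beta chain uses Trbv16 and its alpha chain a segment of the Trav9-3 type, which the tables list as 2 copies, Trav9d-3 and Trav9n-3.

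In vivo, naive 2D2+ T cells of C57/B6 background were cultured to inflammatory Th17 cells, transferred into WT recipients in which they induced EAE, and recovered at peak disease. The donors were labelled CHD1 cKO (4 libraries each from the draining lymph node, dLN, and the central nervous system, CNS) or CHD1 WT (3 libraries from each tissue), and GR cKO or GR WT (4 CNS libraries each). CHD1 is a chromatin remodeller and GR the glucocorticoid receptor. The Cre driver of either cKO, how the 2D2+ gate was drawn and the ages of the mice are not given in the sources used here. In vitro, naive T cells from IL-23R KO or WT mice, which were not described as 2D2+, were cultured to the same kind of Th17 cell and given dexamethasone (Dex), a synthetic glucocorticoid, or no Dex for 2 days (4 libraries per genotype and treatment). Each library came from 2000 sorted cells.

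Totals per library ranged from 3148634 to 5158450 counts for dLN cells, from 4911109 to 6262849 for CNS cells of the CHD1 experiment, from 6281769 to 9159671 for those of the GR experiment and from 3320586 to 4732419 for cultured cells. Chd1 did not separate the labelled genotypes: the libraries labelled cKO had 2.28 to 6.04 CPM (counts scaled to a common library total) in the dLN and 3.56 to 6.87 CPM in the CNS, against 4.27 to 5.47 CPM and 4.24 to 6.14 CPM in the WT libraries. Which exons the cKO removes was not given, so a gene-level count need not show the deletion, and these libraries are called "labelled cKO" throughout. Nr3c1, the gene of GR, had 5.25 to 5.68 CPM in GR cKO libraries and 11.1 to 18.0 CPM in GR WT libraries. Il23r had 1.12 to 2.11 CPM in KO Dex, 2.25 to 6.22 CPM in KO control, 5.57 to 16.6 CPM in WT Dex and 6.33 to 8.66 CPM in WT control libraries. Nothing in the sources says that replicates came from separate animals or cultures, so p-values measure the spread between these libraries. In bulk RNA, fewer cells of a type and less RNA per cell cannot be told apart.

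The V exons of the 2D2 segments, and of Trav9-2, the most abundant other Trav row in vivo, show which rows can be told apart by sequence. The following are the genomic V exons from the GRCm38 (mm10) genome with GENCODE M21 positions, all on the plus strand: Trbv16 at chr6:41151933-41152230, Trav9d-3 at chr14:52920819-52921112, Trav9n-3 at chr14:53231809-53232102 and Trav9-2 at chr14:53591221-53591514. Capitals mark the 8 of 294 bases at which Trav9-2 differs from the other Trav9 exons shown, and Trbv16 is all in lower case.
Trbv16: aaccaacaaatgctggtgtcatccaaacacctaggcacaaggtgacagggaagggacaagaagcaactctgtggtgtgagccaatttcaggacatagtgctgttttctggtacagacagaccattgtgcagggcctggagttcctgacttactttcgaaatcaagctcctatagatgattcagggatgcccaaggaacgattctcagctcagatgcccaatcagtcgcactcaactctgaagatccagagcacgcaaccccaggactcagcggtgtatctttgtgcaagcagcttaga
Trav9d-3: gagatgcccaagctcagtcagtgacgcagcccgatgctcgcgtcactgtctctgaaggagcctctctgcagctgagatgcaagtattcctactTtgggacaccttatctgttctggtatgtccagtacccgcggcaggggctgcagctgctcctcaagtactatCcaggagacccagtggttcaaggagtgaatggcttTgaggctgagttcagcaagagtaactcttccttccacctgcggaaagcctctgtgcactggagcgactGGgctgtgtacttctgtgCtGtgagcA
Trav9n-3: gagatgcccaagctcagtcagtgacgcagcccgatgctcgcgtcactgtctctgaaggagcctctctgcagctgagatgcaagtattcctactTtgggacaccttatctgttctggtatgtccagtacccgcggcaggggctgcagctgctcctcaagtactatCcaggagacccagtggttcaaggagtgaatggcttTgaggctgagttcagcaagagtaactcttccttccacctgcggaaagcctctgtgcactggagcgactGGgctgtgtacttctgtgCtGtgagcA
Trav9-2: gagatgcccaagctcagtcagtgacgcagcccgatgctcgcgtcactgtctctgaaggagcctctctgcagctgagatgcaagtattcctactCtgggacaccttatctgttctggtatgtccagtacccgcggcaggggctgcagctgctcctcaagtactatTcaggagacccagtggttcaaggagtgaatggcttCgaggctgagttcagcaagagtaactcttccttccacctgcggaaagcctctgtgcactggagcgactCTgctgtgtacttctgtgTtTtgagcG

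Trav9d-3 and Trav9n-3 have the same V exon, so the share of each was set by how the authors' counting divided shared reads: Trav9d-3 held 31.9 to 69.5% of the pair in the dLN libraries. The pair is therefore given as a sum. Trav9-2 was 97.3% identical to it, with a longest stretch of 93 bases without a difference. In the in vivo groups Trav9-2 averaged 3.84 to 4.41 counts per 100 counts of the 2D2 pair, and in the 4 culture groups 193 to 408. Among Trav rows, 40 had no stretch of 35 bases in their annotated transcripts that was absent from all other V rows, and 10 were unique throughout. Of 35 Trbv rows, 30 were unique throughout, Trbv16 among them. Values of single Trav rows with near copies are uncertain for that reason, and 13 of 17 pairs of rows with identical transcripts had equal counts in every library.

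In the dLN, segments that the 2D2 receptor does not use held a larger share of the V counts in every library labelled CHD1 cKO than in any WT library, on both chains. Trbv segments other than Trbv16 held 1.87, 8.19, 3.06 and 1.35% of all Trbv counts in the 4 labelled cKO dLN libraries, and 0.45, 0.57 and 0.75% in the 3 WT dLN libraries. The second labelled cKO library was the highest and the groups did not overlap. Trav segments other than the 2D2 pair held 14.1, 27.1, 17.8 and 12.7% of all Trav counts in the labelled cKO libraries, against 9.61, 11.1 and 10.1% in the WT libraries. The share of the 2D2 pair was 7.69 percentage points lower in labelled cKO libraries (82.1 ± 6.5%, SD, n = 4) than in WT libraries (89.7 ± 0.75%, n = 3). That of Trbv16 was 3.02 points lower (96.4 ± 3.1% against 99.4 ± 0.15%). Without the second labelled cKO library the differences were -4.62 points for the pair and -1.50 points for Trbv16. Each difference over all 7 libraries had p = 0.0571 in an exact two-sided permutation test, the smallest p that 4 against 3 libraries allow, and 0.0952 after adjustment over 10 share tests.

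**Figure D1:**
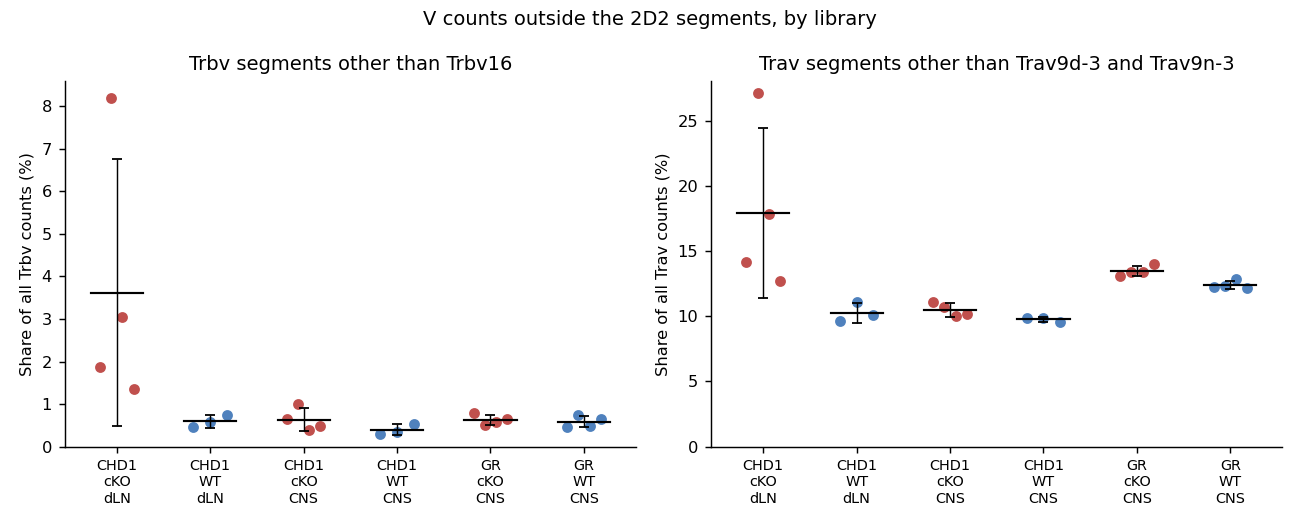
Share of all Trbv counts (left) and of all Trav counts (right) held by segments that the 2D2 receptor does not use, in percent. Each point is a library and each bar a group mean. The 4 labelled CHD1 cKO dLN libraries sit at 1.35 to 8.19% (Trbv) and 12.7 to 27.1% (Trav), above all 3 WT dLN libraries, while the CNS groups lie between 0.29 and 1.01% for Trbv.

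Scaled to whole libraries, the other Trbv segments and Trbv16 lay apart in opposite directions. Other Trbv segments had 137, 239, 136 and 74.4 CPM in the labelled cKO libraries and 46.7, 59.1 and 69.0 CPM in the WT libraries, with no overlap. Trbv16 had 7164, 2682, 4312 and 5449 CPM in the labelled cKO libraries and 10290, 10235 and 9076 CPM in the WT libraries, again with no overlap. In edgeR's quasi-likelihood test, which gives log2 fold changes with the standard error and p-values adjusted by Benjamini-Hochberg over all features tested, the summed other Trbv counts differed by 1.35 ± 0.29 (adjusted p = 0.0747). Trbv16 differed by -0.90 ± 0.28 (adjusted p = 0.133), the 2D2 Trav pair by -0.56 ± 0.27 (adjusted p = 0.282) and the other Trav segments by 0.22 ± 0.10 (adjusted p = 0.245). None of these sums passed the threshold of 0.05 in this edgeR test. The other Trbv sum and Trbv16 passed it with DESeq2 (1.34, adjusted p = 1.75e-04, and -0.91, adjusted p = 0.0206). They also passed by edgeR with no filter on low counts (adjusted p = 7.13e-04 and 0.0145) and with library-size scaling (adjusted p = 0.0103 and 0.0156). Without labelled cKO library 4, which had the lowest other Trbv CPM of its group, both passed by edgeR as well. The other Trbv sum was then at 1.51 (adjusted p = 0.00722) and Trbv16 at -1.06 (adjusted p = 0.0436). Neither passed when any of the other 6 libraries was left out.

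Several single Trbv segments were higher in each labelled cKO library than in any WT library. Trbv13-2, second by mean share among Trbv segments in the cultured cells, had 105, 195, 148 and 75 counts in the labelled cKO dLN libraries and 14, 27 and 45 counts in the WT dLN libraries. Trbv1 had 14, 67, 53 and 16 counts in the labelled cKO libraries and 0, 0 and 4 in the WT libraries, and Trbv12-2 had 32, 61, 60 and 25 counts against 0, 10 and 0. For none of the 3 did the groups overlap. How many of all features separate in this way was not counted, and 20.1% of them had unadjusted p under 0.05 by edgeR. Trbv15 had 30, 67, 32 and 15 counts in the labelled cKO libraries and was at 0 in every WT library, which puts it at least 32.0-fold higher with a floor of 3 counts over the WT group. On the same floor, Trbv17 (12, 48, 21 and 5 counts) was at least 19.1-fold higher and Trbv5 (30, 30, 17 and 5 counts) at least 18.2-fold higher than in WT libraries. Trbv4 had 15, 31, 67 and 10 counts in the labelled cKO libraries and 0, 0 and 5 in the WT libraries. Trbv15, Trbv17, Trbv5 and Trbv4 were chosen for mention here after their values were seen. The labelled cKO libraries had counts in 18, 22, 19 and 14 Trbv rows, against 5, 8 and 9 in the WT libraries.

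Trbv13-1 was the most abundant Trbv row after Trbv16 in 5 of the 7 dLN libraries, Trbv13-2 being above it in labelled cKO libraries 2 and 3. It had 211, 89, 119 and 181 counts in the labelled cKO dLN libraries and 163, 126 and 236 counts in the WT dLN libraries, with overlap. In WT dLN libraries it made up most of the counts outside Trbv16: without it, the other Trbv segments had 356, 783, 538 and 203 counts in labelled cKO libraries and 25, 60 and 87 counts in WT libraries. Their summed log2 difference then was 2.96 (edgeR adjusted p = 0.0599), an alternative chosen after seeing the data. The order of these rows differed between the genotypes. Trbv13-1 averaged 0.680 ± 0.119% of Trbv counts in labelled cKO libraries and 0.444 ± 0.093% in WT libraries (SD, n = 4 and n = 3). Trbv13-2 averaged 0.783 ± 0.724% in labelled cKO libraries and 0.0740 ± 0.0366% in WT libraries, and Trbv12-2 0.261 ± 0.225% and 0.0103 ± 0.0178%. On the alpha chain Trav9-2 was the highest other row in all 7 libraries, with 3.20 ± 0.87% of Trav counts in labelled cKO libraries and 3.46 ± 0.33% in WT libraries. Trav21-dv12 averaged 0.643% and 0.707% in the same groups, and Trav6-7-dv9 0.720% and 0.353%.

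On the alpha chain, counts outside the whole Trav9 family, whose members share long stretches with the 2D2 pair, held 9.91, 23.5, 13.0 and 8.15% of Trav counts in labelled cKO libraries. The WT libraries had 5.82, 7.03 and 6.18%. The groups did not overlap, and the second labelled cKO library was again the highest. With the Trav9 family left out, a choice made after seeing the data, the other Trav sum differed by 0.47 (edgeR adjusted p = 0.0958). Counts were found in 81, 79, 83 and 73 Trav rows in the labelled cKO libraries, against 65, 57 and 54 in the WT libraries.

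No single V row was called in the dLN: 0 of the 58 that passed the count filter (47 Trav and 11 Trbv) had an adjusted p under 0.05 by edgeR, in a comparison where 7 of 9803 features, 0.0714%, did (0.0306% higher, 0.0408% lower). Unadjusted p was under 0.05 for 21 of the 58, against 20.1% of all features, and DESeq2 called 12 of the 58, against 3.93% of all features. Among the 21 were pairs with equal counts, each pair entering as separate rows: Trav12d-2 and Trav12n-2, Trav14d-1 and Trav14n-1, and Trav6d-7 and Trav6n-7. Without labelled cKO library 4 edgeR called 13 of 55, where it called 10.2% of all features. Rows that were near 0 in WT libraries entered the test through the labelled cKO libraries, so the tested rows are a selected set. Their median log2 difference was 0.21 for Trav and 3.60 for Trbv, beside 0.02 for all features.

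**Figure D2:**
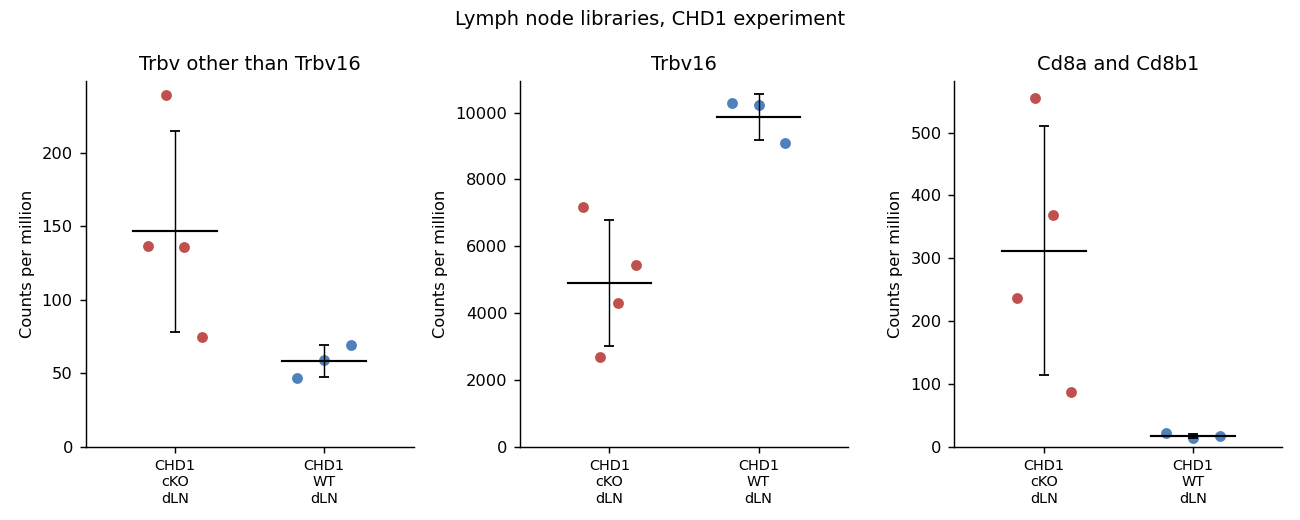
Levels in CPM in the dLN libraries of the CHD1 experiment. Each point is a library and each bar a group mean. Other Trbv segments and the Cd8a and Cd8b1 sum are higher in all 4 labelled cKO libraries than in the 3 WT libraries, and Trbv16 is lower in all 4.

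Genes of the CD8 co-receptor moved with the other V segments. Cd8a, which encodes its alpha chain, had 246, 539, 445 and 105 counts in the labelled cKO dLN libraries and 7, 1 and 5 counts in the WT libraries (log2 difference 6.17 ± 0.76, edgeR adjusted p = 0.0356). Cd8b1, the beta chain, had 740, 1484, 1337 and 348 counts in the labelled cKO libraries and 78, 44 and 74 counts in the WT libraries (3.84 ± 0.51, adjusted p = 0.0356). Both were called, and both were highest in the second labelled cKO library, where the other Trbv share was highest. Cd4 had 677, 240, 401 and 619 counts in labelled cKO libraries and 681, 519 and 760 counts in WT libraries, with overlap. In CPM, Cd4 had 163, 65.9, 82.9 and 120 in labelled cKO libraries and 169, 165 and 162 in WT libraries. The CPM ranges overlapped only through the first labelled cKO library. The CD8 markers summed to 87.8 to 555 CPM in the labelled cKO libraries and 14.3 to 21.1 CPM in the WT libraries, both markers being detected in each group. Regulatory T cell markers (Foxp3 and Ikzf2 summed) had 2.71 to 13.996 CPM in the labelled cKO libraries and 0 to 0.497 CPM in the WT libraries, where Foxp3 was at 0. The part of these markers in the V segment differences was not tested.

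The beta constant segments, which every beta chain transcript carries, also separated the groups. The alpha constant gene Trac did not, with 878 to 2366 CPM in labelled cKO dLN libraries and 2297 to 2761 CPM in WT dLN libraries. Trbc2, one of the pair of beta constant genes, held 95.2, 88.0, 93.5 and 96.7% of Trbc counts in labelled cKO dLN libraries and 97.7, 97.4 and 97.5% in WT dLN libraries, without overlap. In the cultured cells it held 58.8 to 65.2%. Total Trbc averaged 8513 CPM in labelled cKO dLN libraries and 16951 CPM in WT dLN libraries, while Trbv counts per Trbc count were 0.594 ± 0.008 and 0.587 ± 0.021 (SD, n = 4 and n = 3). Trbv counts per Trav count were 2.14, 1.85, 2.05 and 2.17 in labelled cKO libraries and 2.69, 2.78 and 2.84 in WT libraries (exact permutation p = 0.0571, the smallest possible, and 0.0800 adjusted over 7 tests). Of 18 genes of the receptor complex and of V(D)J recombination listed beside the segments, 11 were tested in the dLN, and Cd8a and Cd8b1 were the 2 called, where 0.0714% of all features were.

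In the CNS of the CHD1 experiment, the Trbv makeup of the labelled genotypes overlapped. Other Trbv segments held 0.64, 1.01, 0.39 and 0.49% of Trbv counts in labelled cKO CNS libraries and 0.29, 0.35 and 0.54% in WT CNS libraries. Their summed log2 difference was 0.228 (edgeR adjusted p = 0.604). Without Trbv13-1, a choice made after seeing the data, it was 1.296 (edgeR unadjusted p = 0.00176, adjusted p = 0.223). That is the same direction as in the dLN and was not called. In that fit the other Trav sum, without the Trav9 family, differed by -0.437 (adjusted p = 0.401), opposite to the dLN. Trbv16 itself did not differ past the threshold (99.4 ± 0.27% against 99.6 ± 0.13%, exact permutation p = 0.229). The 2D2 Trav pair held 89.5 ± 0.52% of Trav counts in labelled cKO libraries and 90.2 ± 0.21% in WT libraries, with no overlap (exact permutation p = 0.0571, the smallest possible, adjusted 0.0952). That difference turned to 0.100 points higher in labelled cKO libraries when every Trav9 row was counted with the pair. EdgeR called 0 of 59 V rows, against 0.00896% of all features. Unadjusted p was under 0.05 for 7 of the 59, and for 11.9% of all features, the same share, and DESeq2 called 0 of the 59, against 1.62% of all features. Trbv12-2 had 60 counts over the 4 labelled cKO libraries and 0 over the 3 WT libraries, at least 15.1-fold higher, but was not called. Trav9n-4, with 94 counts over the labelled cKO libraries against 0 over the WT libraries, was at least 23.7-fold higher and not called, and both rows were picked out after their values were seen. Of the 35-base stretches of Trav9n-4, 6.42% were in no other V row, and it shared others with the 2D2 pair. Its counts thus depend on how shared reads were divided. By mean share over these 7 libraries, the leading rows outside the 2D2 segments were Trav9-2 (3.74% of Trav counts), Trav21-dv12 (0.462%) and Trav17 (0.460%), and on the beta chain Trbv13-1 (0.318% of Trbv counts), Trbv13-2 (0.0375%) and Trbv29 (0.0339%). Trav9-2 and Trbv13-1 led in each of the 7. Trbv13-2 averaged 0.0516% in labelled cKO libraries and 0.0188% in WT libraries, and Trbv29 0.0543% and 0.0067%, with 0.217% in 1 labelled cKO library. The labelled cKO CNS libraries had 2607 to 5360 CPM of macrophage and microglia markers (6 genes summed) and 107 to 542 CPM of B cell markers (6 genes), against 2034 to 2927 CPM and 39.1 to 71.8 CPM in the WT CNS libraries. Their part was not tested. Of the 18 receptor and recombination genes, 11 were tested and edgeR called 0 (4 at unadjusted p under 0.05).

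In the GR experiment, Trbv16 dominated the beta chain counts of both genotypes and the Trav makeup differed by a narrow margin. Trbv16 held 99.4% of Trbv counts in both groups (exact permutation p = 0.629). The 2D2 Trav pair held 86.9, 86.6, 86.6 and 86.0% of Trav counts in GR cKO libraries and 87.8, 87.7, 87.1 and 87.9% in GR WT libraries. The groups did not overlap and differed by -1.06 percentage points (86.5 ± 0.39% against 87.6 ± 0.33%, SD, n = 4 each; exact permutation p = 0.0286, the smallest possible, adjusted 0.0952). Among single rows, Trav12-3, named after its values were seen, had 69, 138, 136 and 137 counts in GR cKO libraries and 59, 84, 73 and 39 counts in GR WT libraries (log2 difference 1.12 ± 0.29, edgeR adjusted p = 0.262). EdgeR called 0 of 64 V rows (10 at unadjusted p under 0.05), where it also called 0 of 11148 features (0%, with 11% at unadjusted p under 0.05), and DESeq2 called 3 V rows, against 1.09% of all features. By mean share over the 8 libraries the leading rows outside the 2D2 segments were Trav9-2 (3.42% of Trav counts), Trav6-7-dv9 (0.717%) and Trav3-3 (0.516%), and Trbv13-1 (0.370% of Trbv counts), Trbv13-2 (0.0416%) and Trbv1 (0.0257%). Trbv13-2 averaged 0.0576% in GR cKO libraries and 0.0255% in GR WT libraries, and Trbv1 0.0219% and 0.0295%. Trbv counts per Trav count were 2.12, 2.54, 2.06 and 2.41 in GR cKO libraries and 2.93, 2.82, 2.66 and 2.51 in GR WT libraries. These ranges overlapped (exact permutation p = 0.0571, adjusted 0.0800). Macrophage and microglia markers summed to 2986 to 5864 CPM in GR cKO libraries and 1529 to 4264 CPM in GR WT libraries, and their part was not tested. Of 10 receptor and recombination genes tested, edgeR called 0 (5 at unadjusted p under 0.05).

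CNS libraries were set against dLN libraries within each labelled CHD1 genotype. The tissues came in separate tables, so tissue and table cannot be told apart, and the CNS libraries held 2034 to 5360 CPM of macrophage and microglia markers against 4.76 to 60.1 CPM in the dLN. Among libraries labelled cKO, other Trbv segments were lower in the CNS by a summed log2 difference of -1.45 ± 0.24 (edgeR adjusted p = 1.83e-04) and Trbv16 was higher by 0.89 ± 0.29 (adjusted p = 0.0205). Without the third labelled cKO CNS library Trbv16 differed by 0.69 (adjusted p = 0.0708). The share of Trbv16 was 2.99 points higher and that of the 2D2 Trav pair 7.46 points higher in the CNS, neither with overlap (exact permutation p = 0.0286 each, the smallest possible, adjusted 0.0952). The other Trav sum differed by -0.26 by TMM scaling (adjusted p = 0.207) and by 0.36 when scaled to library size alone, a scaling that moved the median of all features by 0.604. With the Trav9 family left out, a choice made after seeing the data, the other Trav sum differed by -0.69 by TMM scaling (edgeR adjusted p = 0.00198). Among WT libraries, the other Trbv sum differed by -0.32 ± 0.27 (adjusted p = 0.476), and by 0.063 with library size alone.

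EdgeR called 16 of 93 V rows between CNS and dLN in libraries labelled cKO, 2 higher and 14 lower, where 47.3% of all features were called (24.6% higher and 22.7% lower). Trbv13-2 had 24, 41, 39 and 38 counts in labelled cKO CNS libraries, against 105, 195, 148 and 75 in the dLN libraries (-2.85 ± 0.55, adjusted p = 7.57e-04), without overlap. Trbv4 had 6, 5, 0 and 0 counts in the CNS and Trbv5 had 7, 0, 0 and 0, and each differed by -4.33 on the log2 scale. Without the second or the third labelled cKO dLN library, 8 or 10 V rows were called, where 41.2% or 42.1% of all features were. Trbv1, Trbv12-1 and Trbv12-2 completed the 6 called Trbv rows that were lower in the CNS. The 8 called Trav rows that were lower included near copies counted alike, such as Trav12d-2 and Trav12n-2 (-3.30 each), Trav3d-3 and Trav3n-3 (-1.63 each), Trav14d-1 and Trav14n-1, besides Trav14-1 and Trav7-4 (-2.13). Trbv16 (0.89 ± 0.29, adjusted p = 0.0209) and Trav17 (0.76 ± 0.24) were higher. The calls of Trbv16, Trav17, Trav3d-3, Trav3n-3, Trbv1, Trbv12-1 and Trbv12-2 were lost when some single libraries were left out. Trbv4 and Trbv5 had a value with 5 of the libraries left out in turn, where the other called rows had 8. Both were called in each of those 5. Of the 11 receptor and recombination genes tested, 5 were called: Cd8a (-6.55), Cd8b1 (-3.60) and Trbc1 (-0.85) were lower in the CNS, Trbc2 (0.91) was higher, and the signalling chain gene Cd247 had -0.45 by TMM although its mean was 145 CPM in the CNS and 131 CPM in the dLN.

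In WT libraries, edgeR called 0 of the same 93 V rows between CNS and dLN, where 16.7% of all features were called (11.8% higher, 4.93% lower). Unadjusted p was under 0.05 for 8 V rows, against 29.4% of all features, and DESeq2 called 1, against 17.3%. The test of the difference between the genotypes in their tissue effects gave 0 called V rows of 93, where 0.112% of features were called (0.0431% higher, 0.069% lower), and a value of -1.13 ± 0.36 for the other Trbv sum (adjusted p = 0.122). In that test unadjusted p was under 0.05 for 16 V rows, against 18.9% of all features, and DESeq2 called 0, against 4.86%. Of 11 receptor and recombination genes, edgeR called 0 between the WT tissues (1 at unadjusted p under 0.05), and in the test of the difference Cd8b1 was the 1 called (-3.97, adjusted p = 0.0297).

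The cultured Th17 cells used many V segments. Over 16 libraries, Trbv1 held a mean of 13.5% of Trbv counts (11.4 to 16.04%), Trbv13-2 held 11.3% (8.82 to 18.2%), Trbv3 8.74% (3.58 to 11.4%), Trbv31 8.68% (5.82 to 13.2%) and Trbv5 6.81% (3.79 to 10.2%). The ranges of these 5 segments overlap. Trbv31 lies downstream of the constant genes in the opposite orientation to the other segments, and it was among the 5 most used. Among Trav rows, Trav7-2 averaged 4.74% of Trav counts (2.96 to 6.66%), Trav6-7-dv9 3.63%, Trav7-4 2.81%, and Trav4-4-dv10 and Trav7-5 2.23% each, also with overlapping ranges. By family, Trav6 held 17.3% and Trav7 16.8%, followed by Trav14 and Trav12 with 10.3% each. The 2D2 Trav pair, which is also part of the ordinary repertoire, held at most 1.45% of Trav counts in any culture library.

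**Figure D3:**
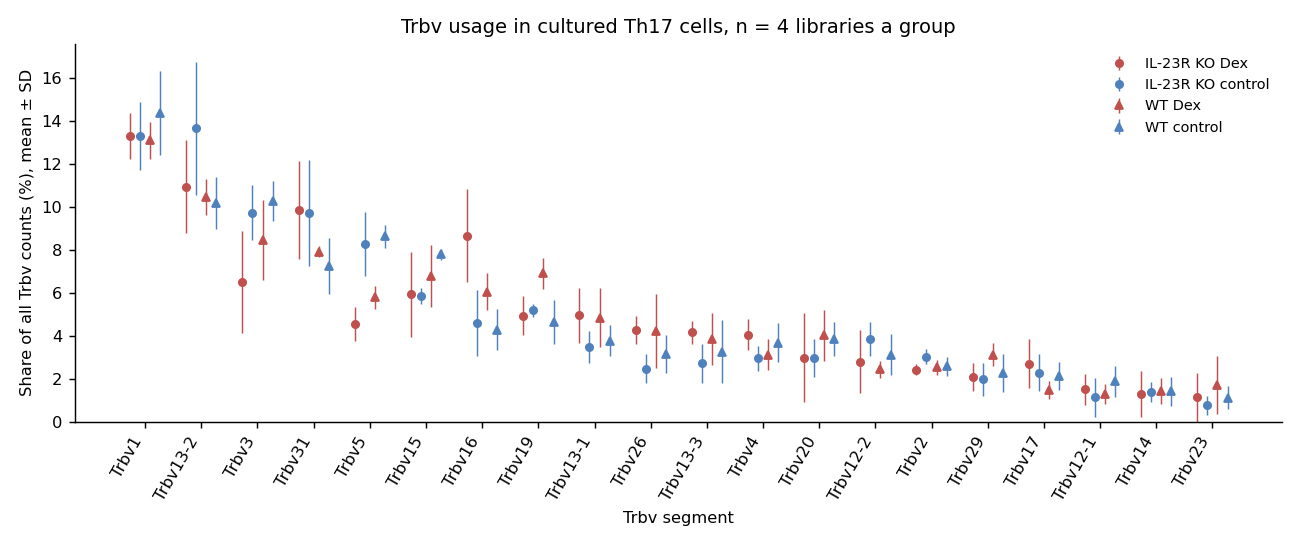
Share of all Trbv counts in percent for the 20 Trbv segments with a mean share of at least 0.5% in the 16 culture libraries. Points are group means and bars the SD over 4 libraries. Trbv1 averages 13.1 to 14.4% in the 4 groups, and Trbv5 lies lower in both Dex groups than in both control groups.

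An effective number of segments (the inverse Simpson index, the count of equally used segments that would give the same unevenness) was 26.6 ± 0.54 for Trav in KO Dex, 26.8 ± 1.26 in KO control, 27.5 ± 0.69 in WT Dex and 27.4 ± 0.88 in WT control cells. For Trbv it was 13.7 ± 1.35, 12.4 ± 0.63, 14.2 ± 0.49 and 13.3 ± 0.50 in the same groups (SD, n = 4 each). None of the 8 group tests reached an adjusted p under 0.286 in exact permutation tests.

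Dexamethasone lowered Trbv counts in IL-23R KO cells and, to a lesser extent, in WT cells, while the Trav sum differed in KO cells by 0.13 on the log2 scale by TMM and by -0.32 by library size alone. All Trbv segments summed to 340 ± 31.4 CPM in KO Dex cells and 879 ± 47.4 CPM in KO control cells, with ranges of 299 to 365 and 833 to 937 CPM (SD, n = 4 each). They summed to 592 ± 46.3 CPM in WT Dex cells and 795 ± 65.3 CPM in WT control cells, with ranges of 529 to 629 and 713 to 856 CPM. The Dex ranges lay below the control ranges in both genotypes. By edgeR, the Trbv sum fell by 0.91 ± 0.08 on the log2 scale in KO cells (adjusted p = 5.14e-08) and by 0.31 ± 0.08 in WT cells (adjusted p = 0.0208). The fall was larger in KO cells by 0.60 ± 0.11 (test of the difference, adjusted p = 4.89e-04). In WT cells the call was lost without control library 3 or 4 or Dex library 1 or 2 (adjusted p 0.0559 to 0.0638). Between genotypes, the Trbv sum was lower in KO Dex than in WT Dex cells (-0.50 ± 0.08, adjusted p = 6.49e-05), and KO and WT control cells differed by 0.11 (adjusted p = 0.763).

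All Trav segments summed to 582 ± 61.7 CPM in KO Dex, 728 ± 34.2 CPM in KO control, 623 ± 51.2 CPM in WT Dex and 622 ± 27.6 CPM in WT control cells. The edgeR differences of the Trav sum were 0.13 for Dex in KO cells and 0.12 for Dex in WT cells, and neither passed the test. The KO value depended on the scaling, being -0.32 (adjusted p = 0.00170) by library size alone, which shifts the median of all features by -0.455 in that comparison and by -0.366 in the genotype by Dex term. Trbv counts per Trav count, which no library scaling affects, were 0.586 ± 0.038 in KO Dex and 1.21 ± 0.12 in KO control cells, and 0.952 ± 0.080 in WT Dex and 1.28 ± 0.076 in WT control cells. Dex and control ranges did not overlap in either genotype, nor did KO Dex overlap WT Dex (exact permutation p = 0.0286 each, the smallest possible, adjusted 0.0667), whereas KO and WT control cells overlapped (p = 0.371). No effect of Dex on Trav alone can be read from a ratio.

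**Figure D4:**
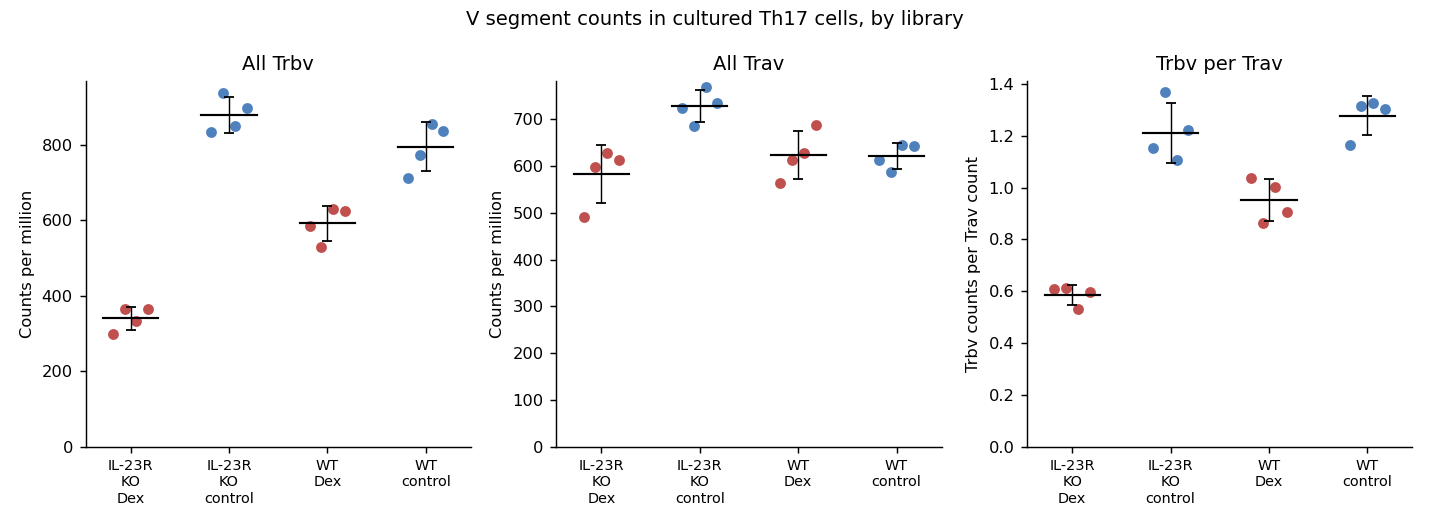
Summed Trbv and Trav levels in CPM and Trbv counts per Trav count in the 16 culture libraries. Each point is a library and each bar a group mean. KO Dex libraries have the lowest Trbv sum (299 to 365 CPM) and the lowest Trbv per Trav (0.53 to 0.61).

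The constant genes of the beta chain were counted as well. Trbc averaged 815 CPM in KO Dex, 1702 CPM in KO control, 1230 CPM in WT Dex and 1581 CPM in WT control cells. Trbv counts per Trbc count were 0.418 ± 0.018, 0.519 ± 0.031, 0.482 ± 0.025 and 0.502 ± 0.019 in those groups (SD, n = 4 each). The KO Dex range (0.397 to 0.438) lay below that of the other 3 groups. Trac, the alpha constant gene, averaged 319, 342, 317 and 317 CPM in the same order of groups. Of 10 receptor and recombination genes tested, edgeR called 2 higher and 5 lower in KO cells with Dex, where 27.3% of all features were higher and 27.4% lower. Trbc1 fell by 0.73 ± 0.08, Trbc2 by 0.52 ± 0.09, the CD3 chain gene Cd3g by 0.46, Cd247 by 0.31 and Cd4 by 0.30. Trac had a log2 difference of 0.36 by TMM although its mean CPM was lower in KO Dex cells. In WT cells, Dex gave 0 called of the 10, against 8.1% of all features (3 at unadjusted p under 0.05, against 22.4%), with Trbc1 at -0.27 (adjusted p = 0.0525).

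Dntt, which encodes the enzyme that adds untemplated bases at V(D)J joints in developing lymphocytes, had 202, 143, 199 and 210 counts in KO Dex libraries and 26, 13, 31 and 16 counts in KO control libraries. In WT cells it had 14, 9, 42 and 32 counts with Dex and 15, 14, 31 and 20 counts without. Only the KO Dex libraries were high (3.53 on the log2 scale for Dex in KO cells, adjusted p = 3.27e-07), and the genotypes differed in their response by 3.13, which was called. Rag1, which encodes a subunit of the recombinase that joins the segments, was at 0 in every library of the series.

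Trbv5, Trbv3 and 9 further Trbv segments fell with Dex in KO cells. Trbv5 had 73, 59, 55 and 68 counts in KO Dex libraries and 293, 283, 218 and 407 counts in KO control libraries (-1.78 ± 0.14, edgeR adjusted p = 1.63e-08). In WT cells, Trbv5 had 153, 147, 174 and 146 counts with Dex and 266, 319, 328 and 333 counts without (-0.89 ± 0.12, adjusted p = 2.60e-04). Dex and control libraries did not overlap in either genotype, and the fall was larger in KO cells (-0.89, called). Trbv3 had 77, 110, 52 and 127 counts in KO Dex libraries and 346, 348, 340 and 351 counts in KO control libraries (-1.49), and Trbv12-2, Trbv13-2 and Trbv2 fell by 1.33, 1.23 and 1.22. Trbv19, Trbv15, Trbv1, Trbv20, Trbv31 and Trbv29 fell by 0.98, 0.91, 0.91, 0.90, 0.89 and 0.87. In all, 11 of 21 tested Trbv rows were lower and 0 higher in KO cells with Dex, where 27.4% of all features were lower and 27.3% higher (54.7% called), and the median difference was -0.89 for Trbv, 0.06 for Trav and near 0 for all features. Of 94 tested Trav rows, 4 were higher and 3 lower. Trav4d-3 and Trav4n-3 differed by -2.68 each, and Trav13d-4, with 0 counts in KO Dex and 46 in KO control libraries, was at least 15.7-fold lower. Trav12d-3 (0.92), Trav4d-4 and Trav4n-4 (1.09 each) and Trav6d-3 (2.80) were higher. The calls of these 7 Trav rows, of Trbv20 and of Trbv29 were lost when some single libraries were left out, and those of the other 9 Trbv rows were not.

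Trbv16 was not called in KO cells. It had 89, 130, 100 and 175 counts in KO Dex and 84, 234, 132 and 231 counts in KO control libraries, with a log2 difference of 0.00 ± 0.26 by TMM and 29.9 ± 9.94 CPM against 40.9 ± 15.4 CPM. The groups overlapped. Its share of Trbv counts was 8.67 ± 2.18% in KO Dex and 4.60 ± 1.55% in KO control cells (exact permutation p = 0.0286, the smallest possible, adjusted 0.114 over 4 tests). In WT cells the share was 6.06 ± 0.86% with Dex and 4.27 ± 0.95% without (exact permutation p = 0.0571, adjusted 0.114).

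**Figure D5:**
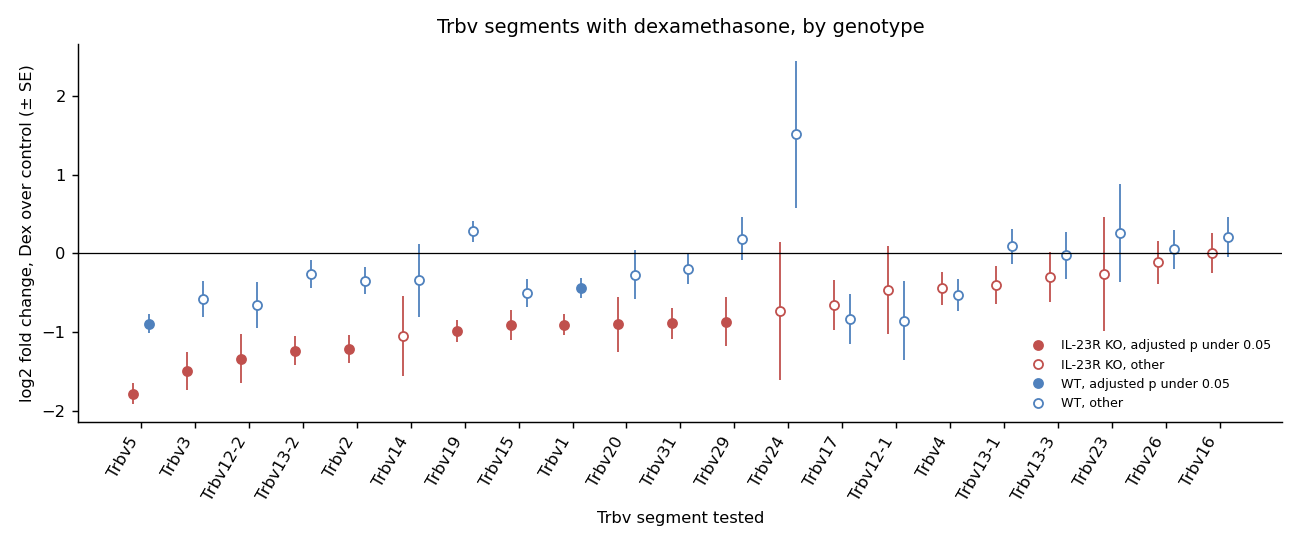
Log2 fold change, Dex over control, of the 21 tested Trbv segments in IL-23R KO and WT cells. Points are edgeR estimates, bars the SE, and filled points have an adjusted p under 0.05. In KO cells 11 segments are filled, all below 0, with Trbv5 lowest at -1.78, and in WT cells Trbv5 and Trbv1 are filled.

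In WT cells, Dex gave 4 called V rows of 115 tested (24 at unadjusted p under 0.05, against 22.4% of all features), where 8.1% of all features were called (3.89% higher, 4.21% lower). Trbv5 and Trbv1 fell, and Trbv1 had 349, 296, 361 and 405 counts with Dex and 491, 540, 636 and 413 counts without (-0.44 ± 0.12, adjusted p = 0.0390). Trav9-4 (0.99) and Trav3-3 (1.55) rose. Leaving out each of the 8 libraries in turn, the call of Trbv5 held every time, while that of Trav3-3 was lost in 7 cases, that of Trbv1 in 6 and that of Trav9-4 in 4. The number of calls then was 1 without the second Dex library (7.51% of all features) and 2 without the third Dex library (5.17%) or the first (6.06%) or second (4.81%) control library.

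With Dex present, KO and WT cells differed in 12 of 115 V rows, where 45.9% of all features were called (22.2% higher, 23.7% lower). All 8 called Trbv rows were lower in KO Dex cells. Trbv19 had 51, 73, 73 and 82 counts in KO Dex libraries and 208, 159, 207 and 168 counts in WT Dex libraries, without overlap (-0.98 ± 0.14). Trbv29 (-1.13), Trbv20 (-0.91), Trbv3 (-0.89), Trbv5 (-0.85), Trbv15 (-0.71), Trbv2 (-0.54) and Trbv1 (-0.47) were also lower. Trav4d-4 and Trav4n-4 (1.24 each), Trav17 (0.93) and Trav14d-3-dv8 (0.84) were higher. The calls of these 4 Trav rows, of Trbv20 and of Trbv2 were lost when some single libraries were left out. Without the third WT Dex library 7 V rows were called, against 42.8% of all features. Of the 10 receptor genes, Dntt and, by TMM, Trac (319 against 317 CPM) were higher and Cd3e, Cd3g, Cd4, Trbc1 and Trbc2 lower. Without Dex, edgeR called 0 of 115 V rows between KO and WT control cells, where 0.684% of features were called (0.222% higher, 0.462% lower), and 0 of the 10 receptor genes (0 at unadjusted p under 0.05). Unadjusted p was under 0.05 for 17 V rows, against 9.73% of all features, and DESeq2 called 0, against 1.13%.

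The Dex response differed between the genotypes in 8 V rows of 115, where 32.2% of all features were called (15% higher, 17.2% lower). Trbv19 had the most negative value of the 5 Trbv rows: besides its KO Dex counts above, it had 174, 219, 144 and 215 counts in KO control libraries, and in WT cells 200, 150, 170 and 142 counts without Dex. It fell by 0.98 with Dex in KO cells and differed by 0.28 ± 0.13 (adjusted p = 0.212) in WT cells, a difference of -1.26. Trbv13-2 (-0.97), Trbv3 (-0.91), Trbv5 (-0.89) and Trbv2 (-0.87) also fell more in KO cells. Among Trav rows, Trav7d-4 (-2.46), Trav9-4 (-1.18) and Trav9-2 (1.16) were called. Without WT Dex library 4, 5 V rows were called, against 30.2% of all features. Of the receptor genes, Dntt was higher and Cd3g, Cd4 and Trbc1 lower in this test of the difference.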

How the data were processed

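RNA was sequenced from SMART-Seq2-type libraries of 2000 sorted cells each, amplified for 12 cycles, per the labels' protocols. The authors deposited RSEM 1.3.3 expected counts by gene symbol, on mm10, per the submitters' processing notes. They were whole numbers and were used as such, and no column was left out. The aligner, the annotation release and the treatment of reads shared by V segments are not given in the sources used here.

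Counts were tested with edgeR 4.0.16 in R 4.3.3: filterByExpr (minimum count 10, minimum total 15), TMM scaling, the quasi-likelihood test, and Benjamini-Hochberg adjustment over all features of a comparison, with calls at an adjusted p under 0.05. CHD1 dLN, CHD1 CNS and GR tables were fitted apart, the tissue contrasts on the 14 CHD1 libraries together and the culture contrasts on 16. For the summed V counts, the Trav and Trbv rows were replaced by their sums and the fits were run again in the same way. Shares, ratios and effective numbers (d and n copies summed) were compared with exact two-sided permutation tests over libraries, adjusted within each kind. The tests went through every division of the libraries, and their code was checked against scipy 1.17.1 on random numbers. CPM used all deposited counts of a library. Wilson 95% intervals of the shares had half-widths of 0.292 to 1.15 percentage points for the 2D2 Trav pair and 0.0313 to 0.521 for Trbv16 in vivo, and 0.530 to 1.75 for Trbv16 in vitro; they cover counting error only, since no molecular identifiers are named. A count of 0 was given a floor of 3 counts over the group. The fit was tested on simulated data.

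Named rows were the 2D2 rows, every called row, the 5 leading rows per chain in vitro and the 3 leading other rows per chain in each in vivo table, besides those said to be chosen after seeing values. Alternatives were DESeq2 1.42.0, its size factors, no filter, the replicate block, each library left out, and library-size scaling, the last added after seeing the data. Members and lists were chosen with earlier results of these data known. Marker lists were summed as CPM.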

Additional observations from a re-analysis of the deposited data

Results flagged for a closer look

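The response to Dex differed between IL-23R KO and WT cells, by the edgeR test of the difference, for the sum of all Trbv segments (-0.60, log2 scale, adjusted p = 4.89e-04) and for 8 rows. Negative values mean a lower Dex over control ratio in KO cells. They were Trbv19 (-1.26), Trbv13-2 (-0.97), Trbv3 (-0.91), Trbv5 (-0.89) and Trbv2 (-0.87) on the beta chain, and Trav7d-4 (-2.46), Trav9-4 (-1.18) and Trav9-2 (1.16) on the alpha chain. Calls of Trbv19, Trbv13-2, Trbv5, Trbv2 and Trav9-4 held whichever single library was left out, while those of Trav7d-4, Trav9-2 and Trbv3 were lost without 11, 9 and 9 of the 16 libraries.

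A library stood apart from its group of 4 in 2 of 56 groups of values tested, where chance gives about 1 in 20. WT control replicate 1 had 1.16 Trbv counts per Trav count, below the other WT control libraries. IL-23R KO Dex replicate 6 had an effective number of Trav segments of 25.8, below the other KO Dex libraries.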

How the results depend on the processing

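In the dLN, the other Trbv sum passed the threshold with DESeq2 (1.34), no filter (1.34), the replicate block (1.51) and library-size scaling (1.33), and Trbv16 did so too (-0.91, -0.90, -1.17 and -1.01). Labelled cKO dLN library 4 had no same-numbered WT dLN library, so the block took it out of the difference. The block and the fit without that library (1.51 and -1.06) are thus not separate checks. V rows called in the dLN were 12 with DESeq2, 19 with no filter, 9 with the replicate block and 14 with library-size scaling, against 0 (all features: 3.93, 2.28, 6.27 and 3.44%). Elsewhere the counts of called rows were 1 (CHD1 CNS), 1 (genotype by tissue), 4 (CNS against dLN, WT), 28 (CNS against dLN, labelled cKO), 1 (KO against WT, control) and 13 (genotype by Dex) with no filter. They were 1 (CNS against dLN, WT) and 3 (GR) with DESeq2, 1 with the block and 2 with library-size scaling (CNS against dLN, WT), and 19 with library-size scaling (genotype by Dex). The main fits called 0.00896% (CHD1 CNS), 0.112% (genotype by tissue), 16.7% (CNS against dLN, WT) and 47.3% (labelled cKO) of all features. For KO against WT control and genotype by Dex these shares were 0.684% and 32.2%. DESeq2 called 17.3% (CNS against dLN, WT) and 1.09% (GR) of all features. For these comparisons, shares under the other settings are not given, so those counts have no background beside them. DESeq2 called the genotype by tissue other Trbv sum (-1.09). Between CNS and dLN in labelled cKO libraries, the 2D2 Trav sum passed with the block (0.54) and with library-size scaling (1.15). The other Trav sum passed without the Trav9 family (-0.69) and was 0.36 with library-size scaling. Library-size scaling also turned the other Trbv sum in WT CNS against dLN (0.063), other Trav in GR (-0.024), and all Trav in KO with Dex (-0.32), KO against WT with Dex (-0.099) and genotype by Dex (-0.32), the last also with no filter (-0.028). All Trav in KO against WT with Dex was called with DESeq2 (0.21) and its size factors (0.21). The 2D2 Trav share turned in the CHD1 CNS with every Trav9 row counted (0.100) and between WT tissues with segments of at least 10 counts (-0.174). Trav effective numbers turned with copies kept apart in KO with Dex (0.869) and in KO against WT controls (2.79). Calls of named rows were lost in 6 cases with DESeq2, 2 with its size factors, 9 with the block and 14 with library-size scaling. The causes were not tested.

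Leaving out 1 library at a time, called rows were 0 to 13 (dLN), 0 to 2 (CNS against dLN, WT), 8 to 17 (the same, labelled cKO), 1 to 4 (Dex in WT), 7 to 15 (KO against WT, Dex), 0 to 1 (control) and 5 to 11 (genotype by Dex). The share of all features called moved too. In the dLN it was 10.2% in the fit with 13 called V rows, against 0.0714% with all libraries. At the low ends of 8, 1, 7 and 5 it was 41.2, 7.51, 42.8 and 30.2%. Shares at the other ends are not given here. Sums ranged from 1.10 to 1.62 (dLN other Trbv), -1.06 to -0.66 (dLN Trbv16), -1.42 to -0.88 (genotype by tissue, other Trbv) and -0.053 to 0.34 (its 2D2 Trav). Between CNS and dLN in labelled cKO libraries they were 0.27 to 0.66 (2D2 Trav), 0.65 to 1.09 (Trbv16) and -0.44 to -0.11 (other Trav). They were -0.37 to -0.24 (Dex in WT, all Trbv), -0.17 to 0.0059 and -0.026 to 0.16 (GR, 2D2 and other Trav), 0.15 to 0.26 (KO against WT with Dex, all Trav) and -0.046 to 0.067 (genotype by Dex, all Trav). The Trbv16 share ranged from -0.098 to 0.012 points (GR) and -0.067 to 1.03 points (KO against WT controls). Effective numbers ranged from -0.69 to 0.34 (Dex in KO, Trav), -0.20 to 0.44 (Dex in WT, Trav) and -0.96 to 0.084 (KO against WT with Dex, Trbv).

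Correlations of same-numbered libraries over all genes were -0.141 to 0.0669 (dLN genotypes), -0.0417 to 0.142 (CNS genotypes), -0.0079 to 0.148 (tissues, labelled cKO), -0.0350 to 0.138 (tissues, WT), -0.0514 to 0.0852 (Dex in WT) and -0.0691 to 0.0471 (Dex in KO). In no comparison was every pair over 0.1, and a library correlated best with its own number in 17 of 42 cases (6 of 8 for Dex in WT). The numbers were therefore not taken as pairs, and whether same-numbered CNS and dLN libraries share a recipient is not given in the sources used here. No paired analysis was possible for GR or KO against WT because the groups share no numbers. At this depth 58 (dLN) and 59 (CNS) of 163 V rows passed the count filter in the CHD1 tables, so differences of the others were not tested there.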

Other observations

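The 10 Trav rows that lie last in the locus, nearest to the joining segments (Trav15-3 to Trav23, chr14:53767026-53977678, GRCm38), held 7.57 to 13.6% of the Trav counts outside the Trav9 family in labelled CHD1 cKO dLN libraries and 17.7 to 26.0% in WT dLN libraries, without overlap. They held 20.55 to 27.2% in labelled cKO CNS libraries and 17.9 to 20.64% in WT CNS libraries, which overlap. In the GR experiment they held 8.40 to 12.8% in GR cKO libraries and 13.2 to 15.8% in GR WT libraries, without overlap, and in the cultured cells 2.52 to 6.23% (median 3.67%). The experiments and the tissues came in separate tables, and all these values are set side by side with no test. The Trav12 family, picked out after its values were seen, held 1.35 ± 0.16% of Trav counts in GR cKO CNS libraries and 0.684 ± 0.071% in GR WT CNS libraries (SD, n = 4 each), with no test.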
